A study of Mus musculus with 12 samples.

Results

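The type I interferon IFN-β, the type II interferon IFN-γ, the receptor chains that bind them and the kinases attached to those chains are encoded by 9 genes: Ifnb1, Ifng, Ifnar1, Ifnar2, Ifngr1, Ifngr2, Jak1, Jak2 and Tyk2. They were taken by symbol from a table of 55335 mouse genes, and each symbol matched 1 row. The table gave FPKM, a level per length of gene and per mapped fragment of the library, for 12 libraries. All were made from bone marrow-derived macrophages (BMDMs), cells that differentiate in culture when mouse marrow is fed macrophage colony-stimulating factor. The 4 groups of 3 libraries were wild-type BMDMs without stimulation (wild-type control), wild-type BMDMs given LPS+ATP, Nlrp3-/- BMDMs without stimulation (Nlrp3-/- control) and Nlrp3-/- BMDMs given LPS+ATP. The wild-type mice were C57BL/6, BMDMs were taken from mice 8 weeks old, and the Nlrp3-/- mice lacked the inflammasome sensor NLRP3 in every cell. Lipopolysaccharide (LPS) was given for 4 hours and then ATP for 30 minutes according to the sample labels, whereas the study's methods give longer times for both. Nothing in the labels says whether the 3 libraries of a group came from separate mice or separate dishes, so p-values measure the spread between these libraries, which may be technical. The comparisons asked how costimulation changed the interferon machinery in each genotype, how the genotypes differed in each state, and whether the 2 responses differed.

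Interferons are secreted proteins that carry an alarm from a cell that has sensed a microbe to itself and to its neighbours. IFN-β binds a receptor made of IFNAR1 and IFNAR2, which hold the kinases TYK2 and JAK1, while IFN-γ binds a receptor made of IFNGR1 and IFNGR2, which hold JAK1 and JAK2. The kinases phosphorylate STAT transcription factors, which enter the nucleus and switch on interferon-stimulated genes. In macrophages, LPS is known to induce Ifnb1 through TLR4, the adaptor TRIF and the transcription factor IRF3, whereas Ifng is best known as a product of natural killer (NK) cells and T cells.

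Promoters of the 9 genes were read from RefSeq on GRCm38.p6, all 9 symbols being matched, and searched on both strands over the 250 bases before the start. The letters searched were AANNGAAA for IRF factors, GGGANNTTCC for NF-kB and TTCNNNGAA for STAT factors, and no matches of different motifs overlapped in these 9 promoters. The stretch from 180 to 66 bases before the start is printed for the 3 genes that held an IRF or NF-kB match there, with the matches in capitals, because Ifnb1 and Ifng were the members near 0 in control BMDMs and Ifngr2 the only receptor gene with such a match.
Ifnb1: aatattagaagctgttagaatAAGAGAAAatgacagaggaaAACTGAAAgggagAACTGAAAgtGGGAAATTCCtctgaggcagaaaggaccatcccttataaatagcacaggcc
Ifng: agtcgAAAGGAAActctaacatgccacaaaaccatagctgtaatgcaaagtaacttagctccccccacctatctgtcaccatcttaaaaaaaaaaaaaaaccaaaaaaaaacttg
Ifngr2: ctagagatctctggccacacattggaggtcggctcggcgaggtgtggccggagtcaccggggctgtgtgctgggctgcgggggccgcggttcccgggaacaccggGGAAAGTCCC

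The Ifnb1 stretch lies on the minus strand at chr4:88522860-88522974, the Ifng stretch on the plus strand at chr10:118440866-118440980 and the Ifngr2 stretch on the plus strand at chr16:91546879-91546993. Ifnb1 held 3 IRF matches and 1 NF-kB match, all in the space of the printed stretch. Ifng held 1 IRF match there and 1 STAT match farther from the start, Ifnar2 held 1 STAT match, and Ifngr2 held 1 NF-kB match, read on the minus strand. Ifnar1, Ifngr1, Jak1, Jak2 and Tyk2 held none of the 3 motifs in this window. Of 27025 promoters of the same length, 21.6% held the IRF letters, 1.17% the NF-kB letters and 7.18% the STAT letters. A match describes the letters and does not show binding.

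By GENCODE release M21, in which 55154 of the identifiers were found, Ifnar2, Ifnar1 and Ifngr2 lie near each other on the plus strand of chromosome 16, with Il10rb between Ifnar2 and Ifnar1. Ifnb1 on chromosome 4 borders the interferon alpha genes, and Jak1 lies on the same chromosome. Ifng and Ifngr1 are on chromosome 10, Tyk2 on chromosome 9 and Jak2 on chromosome 19. Jak1 overlaps Raver2, and Tyk2 overlaps a non-coding antisense gene, each on the other strand. Ifnar2 overlaps a readthrough gene, and Ifng an unvetted transcript, each on its own strand. Whether the counting used strand is not given in the sources used here, so reads of Jak1 and Tyk2 could not be told apart from those of the genes on the other strand. For Ifnar2 and Ifng, strand would not separate the overlapping genes. The readthrough gene over Ifnar2 was listed at no more than 0.604 FPKM in any library.

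Nlrp3 was 9.68 ± 0.425 FPKM in wild-type control BMDMs and 32.9 ± 0.801 FPKM in wild-type LPS+ATP BMDMs (SD, n = 3 each), and it was listed at 0 in all 6 Nlrp3-/- libraries. The macrophage markers Adgre1, Cd68, Csf1r, Itgam, Fcgr1, Mertk and Lyz2 were above 1 FPKM in each group, with Lyz2 at 9309 FPKM or more as a group mean. Genotype also went with other measures. By table row, Itgam having 2, 4 of 8 macrophage marker rows were lower and the other 4 did not pass in Nlrp3-/- BMDMs in each state, with medians of -0.32 in control and -0.28 with LPS+ATP. Of all tested genes 14.5% were lower in control and 12.6% with LPS+ATP. Xist was 32.8 to 56.3 FPKM in Nlrp3-/- libraries and at most 0.0416 FPKM in wild-type libraries, and the Y-linked Ddx3y was listed at 0 in Nlrp3-/- libraries, so that genotype and donor sex cannot be told apart. Nnt, which differs between C57BL/6 substrains, was 4.09 to 10.3 FPKM in wild-type and 0.670 to 1.47 FPKM in Nlrp3-/- libraries. The 5 fibroblast markers summed to 155 to 159 FPKM in wild-type control, 177 to 180 FPKM in wild-type LPS+ATP, 1158 to 1175 FPKM in Nlrp3-/- control and 880 to 896 FPKM in Nlrp3-/- LPS+ATP libraries. The 8 neutrophil markers summed to 334 to 370, 109 to 127, 1791 to 1842 and 489 to 520 FPKM in the same order. All 5 fibroblast markers and 7 of the neutrophil markers were tested, and all of these were higher in Nlrp3-/- BMDMs in both states. Of all tested genes 33.3% were higher in control and 35.9% with LPS+ATP. The fibroblast marker Lum was below 1 FPKM in every wild-type library, so the filter admitted it through Nlrp3-/- libraries and favoured its higher calls. In bulk RNA, fewer cells of a type and less RNA per cell cannot be told apart. The 4 B cell markers summed to at most 1.57 FPKM in wild-type and to 1.85 to 5.11 FPKM in Nlrp3-/- libraries. The part of sex, substrain and these cells in the genotype differences that follow was not tested.

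Of the 9 members, 7 had at least 1 FPKM in every library. Ifng reached the limit for testing, at least 1 FPKM in at least 3 libraries, only through LPS+ATP libraries, and Ifnb1 did not reach it. Differences of the 8 tested members are on the log2(FPKM + 1) scale, with the standard error (SE) of the limma fit and p-values adjusted by Benjamini-Hochberg over all 12622 tested genes, and an adjusted p under 0.05 was called. With costimulation of wild-type BMDMs, 6 of the 8 members were called higher, where 23.3% of all tested genes were, and 1 was called lower, where 53.1% were. In Nlrp3-/- BMDMs, 5 were called higher and 3 lower, against 20.6% and 53.8% of all tested genes. Ifng had to come out higher in both, since the filter admitted it through its LPS+ATP libraries, and without it the counts were 5 higher and 1 lower of 7 in wild-type and 4 higher and 3 lower of 7 in Nlrp3-/- BMDMs. Between genotypes, 2 members were higher and 2 lower in Nlrp3-/- control BMDMs, against 33.3% and 14.5% of tested genes, and 3 were higher and 2 lower with LPS+ATP, against 35.9% and 12.6%. The response to costimulation differed between genotypes for 4 members, of which 2 were called toward a higher and 2 toward a lower value in Nlrp3-/- BMDMs, against 14.7% and 13.0% of tested genes.

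Most called genes were lower with costimulation on the deposited scale, and the median of all tested genes was -0.26 for wild-type BMDMs and -0.24 for Nlrp3-/- BMDMs. Median-ratio scaling, which sets the typical gene equal between libraries, moved these medians by 0.25 and 0.23. It turned the split of called genes in wild-type BMDMs from 2940 higher and 6701 lower into 4468 and 4505, and in Nlrp3-/- BMDMs from 2594 and 6789 into 4114 and 4164. For the genotype comparisons it moved the median by -0.12 in control and -0.15 with LPS+ATP, and the splits from 4203 higher and 1832 lower into 2587 and 3230, and from 4531 and 1593 into 2871 and 3431. Members with small differences are therefore given under both scalings.

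**Figure D1:**
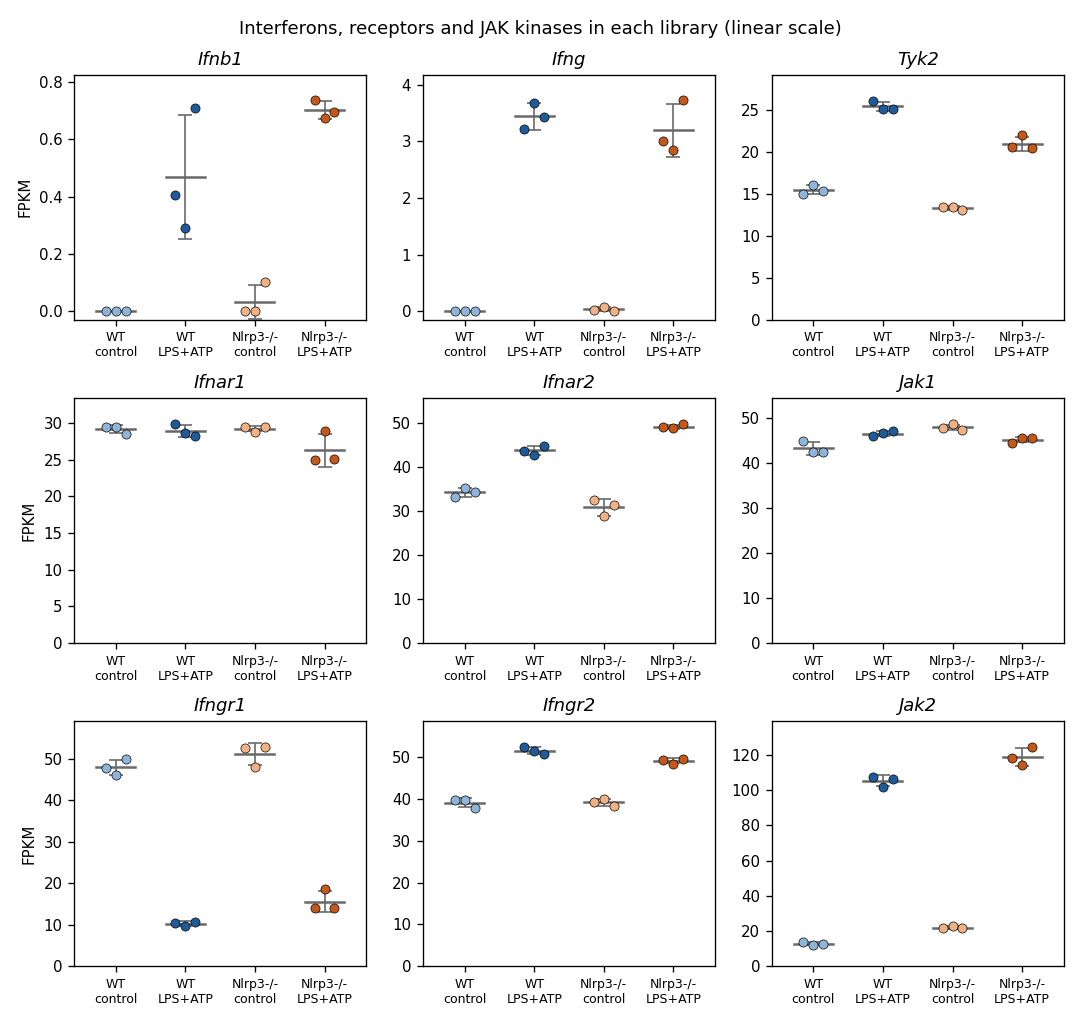
FPKM of each of the 9 genes (vertical axes, linear) in each library (points) of the 4 groups (horizontal axes), with the group mean (wide line) and SD (bars). Ifnb1 and Ifng lie at or near 0 in control libraries, Ifngr1 drops with LPS+ATP from means of 47.9 and 51.2 FPKM to 10.3 and 15.6 FPKM, and Jak2 climbs from means of 12.9 and 22.0 FPKM to 105 and 119 FPKM.

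Ifnb1, the gene of IFN-β, was listed at 0 in all 3 wild-type control libraries and at 0.407, 0.292 and 0.708 FPKM in the wild-type LPS+ATP libraries. It was listed at 0, 0 and 0.103 FPKM in Nlrp3-/- control libraries and at 0.737, 0.676 and 0.694 FPKM in Nlrp3-/- LPS+ATP libraries. All 6 costimulated libraries were above all 6 control libraries, and the 2 costimulated groups overlapped. These levels are too low for the filter, so Ifnb1 has no test in the main fit, and no fold is given against groups at 0. Without the filter, the limma difference was 0.55 in wild-type and 0.72 in Nlrp3-/- BMDMs. These are given as values with no p, because the control libraries lay at or near 0. The genotype difference with LPS+ATP was then 0.22 and did not pass (adjusted p = 0.107 in the fit without the filter).

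Ifng, the gene of IFN-γ, was listed at 0 in all 3 wild-type control libraries and at 3.21, 3.68 and 3.44 FPKM in the wild-type LPS+ATP libraries. It was 0.0292, 0.0700 and 0 FPKM in Nlrp3-/- control libraries and 3.01, 2.85 and 3.73 FPKM in Nlrp3-/- LPS+ATP libraries. Costimulated and control libraries did not overlap in either genotype, and the 2 costimulated groups overlapped. On the log2(FPKM + 1) scale the difference was 2.15 in wild-type and 2.02 in Nlrp3-/- BMDMs, given as values with no p because the filter admitted Ifng through its LPS+ATP libraries. These sizes are set by the pseudocount, with values of 5.14 and 4.65 at a pseudocount of 0.1, and are no bound on the fold. The genotypes did not differ past the threshold in control (0.05, 95% interval -0.12 to 0.22) or with LPS+ATP (-0.09, 95% interval -0.26 to 0.08). With median-ratio scaling the latter was -0.24 (adjusted p = 0.0241).

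The 10 markers of NK and T cells, the cells best known for Ifng, summed to 0.412 to 0.824 FPKM in wild-type control and 0.905 to 1.19 FPKM in wild-type LPS+ATP libraries. They summed to 7.04 to 8.98 FPKM in Nlrp3-/- control and 8.12 to 9.49 FPKM in Nlrp3-/- LPS+ATP libraries. Most of the sum in Nlrp3-/- control libraries was Gzmb, a cytotoxic granule protease, and Nkg7, a granule membrane protein, with means of 3.7 and 2.20 FPKM. In Nlrp3-/- LPS+ATP libraries most of it was Gzmb, with a mean of 6.28 FPKM, and Nkg7 had a mean of 0.326 FPKM. The T cell receptor genes Cd3d, Cd3e and Cd3g were at most 0.0789, 0.0609 and 0.0451 FPKM, and Ncr1 of NK cells at most 0.316 FPKM, in any library. Other markers had higher means in Nlrp3-/- BMDMs. Prf1 was 0.107 and 0.228 FPKM in wild-type and 0.804 and 1.27 FPKM in Nlrp3-/- control and LPS+ATP BMDMs. In the same order Gzma was 0.0271, 0.0796, 1.00 and 0.420 FPKM, and Klrb1c 0.0314, 0.00553, 0.194 and 0.0395 FPKM. The part of such cells in the level of Ifng was not tested. Of 4 markers of plasmacytoid dendritic cells, known for type I interferon, none reached 1 FPKM, and the sum was at most 0.585 FPKM.

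Other interferon genes were lower still. Of 19 other interferon genes, among them interferon alpha, kappa, epsilon, zeta and lambda genes, 14 were listed at 0 in all 12 libraries. The other 5 were Ifna4, Ifna5, Ifnab, Ifnk and Ifnz, none above 0.161 FPKM in any library. Interferon alpha genes are near copies of each other, so reads that fit several of them may have been split or dropped in counting.

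Ifnar1, the type I receptor chain that holds TYK2, stayed near 29 FPKM in 3 of the 4 groups. It was 29.5, 29.5 and 28.6 FPKM in wild-type control and 29.9, 28.6 and 28.3 FPKM in wild-type LPS+ATP libraries, which overlapped. The difference was -0.01 (95% interval -0.12 to 0.10), or 0.31 with median-ratio scaling (adjusted p = 0.000231). In Nlrp3-/- control libraries it was 29.5, 28.8 and 29.4 FPKM, and with LPS+ATP it was 25.0, 28.9 and 25.1 FPKM. Nlrp3-/- LPS+ATP replicate 2 thus reached the control level, while the other 2 libraries were lower. The fall of 0.15 in Nlrp3-/- BMDMs (SE 0.051, adjusted p = 0.0195) turned into 0.13 with median-ratio scaling (adjusted p = 0.0399). Its call was lost without Nlrp3-/- control replicate 1 or 3 or without Nlrp3-/- LPS+ATP replicate 1 or 3, with adjusted p-values of 0.0509, 0.0507, 0.0802 and 0.0791, and with TPM (adjusted p = 0.146). Ifnar1 was lower in Nlrp3-/- than wild-type BMDMs with LPS+ATP, -0.13 with an adjusted p of 0.0477 next to the threshold, though the libraries overlapped. That call was lost with a replicate block (adjusted p = 0.0592), with TPM (adjusted p = 0.0961) and in 11 of the 12 fits that left out 1 library, while median-ratio scaling gave -0.32 (adjusted p = 0.000331). In control the genotypes were level (0.00, 95% interval -0.11 to 0.11), or -0.15 with median-ratio scaling (adjusted p = 0.0376).

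Ifnar2, the chain that holds JAK1, rose with costimulation in both genotypes. It was 33.2, 35.2 and 34.2 FPKM in wild-type control and 43.7, 42.8 and 44.7 FPKM in wild-type LPS+ATP libraries, a rise of 0.35 (SE 0.043, adjusted p = 1.83e-05). It was 32.5, 28.7 and 31.4 FPKM in Nlrp3-/- control and 49.0, 48.8 and 49.7 FPKM in Nlrp3-/- LPS+ATP libraries, a rise of 0.66 (SE 0.043, adjusted p = 9.10e-08). No costimulated library overlapped a control library, and with median-ratio scaling the wild-type rise was 0.67. The rise was larger in Nlrp3-/- BMDMs by 0.31 (SE 0.061, adjusted p = 0.00305). Nlrp3-/- control libraries were lower than wild-type control libraries (-0.15, adjusted p = 0.0163), a call lost without wild-type control replicate 2 (-0.13, adjusted p = 0.0598) and without Nlrp3-/- control replicate 2 (-0.10, adjusted p = 0.0554), and -0.29 with median-ratio scaling. With LPS+ATP the Nlrp3-/- libraries were higher (0.17, adjusted p = 0.00791), which became -0.02 with median-ratio scaling.

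Ifngr1, the ligand-binding chain of the IFN-γ receptor, fell farther than any other member with LPS+ATP. It was 47.9, 46.0 and 49.9 FPKM in wild-type control and 10.4, 9.68 and 10.8 FPKM in wild-type LPS+ATP libraries, 4.66-fold lower in the means. The fall was 2.12 on the log2(FPKM + 1) scale (SE 0.090, adjusted p = 1.62e-09). In Nlrp3-/- BMDMs it was 52.6, 48.1 and 52.8 FPKM in control and 14.1, 18.5 and 14.0 FPKM with LPS+ATP, 3.29-fold lower, a fall of 1.67 (SE 0.090, adjusted p = 1.81e-08). Control and costimulated libraries lay far apart in both genotypes.

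The level of Ifngr1 that was left with LPS+ATP was 1.51 times higher in Nlrp3-/- than in wild-type BMDMs (0.54 on the log2 scale, adjusted p = 0.000452), and no library of one group reached the other. The control groups overlapped (0.09, 95% interval -0.11 to 0.29). The response differed between genotypes by 0.45 (SE 0.128, adjusted p = 0.0227). That last call was lost without wild-type control replicate 3 (adjusted p = 0.0523), wild-type LPS+ATP replicate 2 (adjusted p = 0.0532) or Nlrp3-/- control replicate 2 (adjusted p = 0.0552), where the difference stayed between 0.41 and 0.42, and without the filter on low genes (adjusted p = 0.0562).

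Ifngr2, the signalling chain of the same receptor and the receptor gene with the NF-kB letters printed above, rose. It was 39.8, 39.7 and 37.9 FPKM in wild-type control and 52.3, 51.5 and 50.7 FPKM in wild-type LPS+ATP libraries, a rise of 0.39 (SE 0.030, adjusted p = 2.98e-07). It was 39.3, 39.9 and 38.4 FPKM in Nlrp3-/- control and 49.2, 48.4 and 49.6 FPKM in Nlrp3-/- LPS+ATP libraries, a rise of 0.32 (SE 0.030, adjusted p = 2.05e-06). Both rises were without overlap of libraries, and they were 0.71 and 0.60 with median-ratio scaling. The genotypes were level in control (0.00, 95% interval -0.06 to 0.07), or -0.15 with median-ratio scaling (adjusted p = 0.00201). The difference of -0.07 with LPS+ATP was not called (adjusted p = 0.0833), and it was -0.26 with median-ratio scaling (adjusted p = 3.43e-05).

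Jak2, the kinase held by IFNGR2, had the largest change of the 7 genes above 1 FPKM in every library. It was 13.6, 12.2 and 12.8 FPKM in wild-type control and 108, 102 and 107 FPKM in wild-type LPS+ATP libraries, 8.17-fold higher in the means. The rise was 2.94 on the log2(FPKM + 1) scale (SE 0.047, adjusted p = 3.44e-13). In Nlrp3-/- BMDMs it was 21.6, 22.9 and 21.4 FPKM in control and 118, 114 and 124 FPKM with LPS+ATP, 5.41-fold higher, a rise of 2.38 (SE 0.047, adjusted p = 2.51e-12).

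Unstimulated Nlrp3-/- BMDMs already had 1.71 times the wild-type level of Jak2 (0.73, SE 0.047, adjusted p = 1.79e-07), with no overlap, and the difference also passed with median-ratio scaling. With LPS+ATP the difference was 0.17 (adjusted p = 0.00988), which became -0.02 with median-ratio scaling. The rise was smaller in Nlrp3-/- BMDMs by -0.55 (SE 0.066, adjusted p = 0.000106).

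Jak1, the kinase shared by both receptors, stayed within a narrow band. It was 45.0, 42.5 and 42.4 FPKM in wild-type control and 46.0, 46.7 and 47.1 FPKM in wild-type LPS+ATP libraries, a rise of 0.10 (SE 0.030, adjusted p = 0.00815) that became 0.43 with median-ratio scaling. It was 47.9, 48.7 and 47.5 FPKM in Nlrp3-/- control and 44.6, 45.6 and 45.6 FPKM in Nlrp3-/- LPS+ATP libraries, a fall of 0.08 (SE 0.030, adjusted p = 0.0261) that turned into 0.20 with median-ratio scaling (adjusted p = 0.000119). The fall was not called without Nlrp3-/- control replicate 1 or 2 or Nlrp3-/- LPS+ATP replicate 1, with adjusted p-values of 0.0530, 0.0818 and 0.0835, or with TPM (adjusted p = 0.540). The 2 responses differed by -0.19 (SE 0.042, adjusted p = 0.00724). Nlrp3-/- control libraries were higher than wild-type control libraries by 0.15 (adjusted p = 0.00194), which became -0.01 with median-ratio scaling. With LPS+ATP the difference was -0.04 (95% interval -0.11 to 0.02), or -0.23 with median-ratio scaling (adjusted p = 8.00e-05).

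Tyk2, the kinase held by IFNAR1, rose in both genotypes and was lower in Nlrp3-/- BMDMs in both states. It was 15.0, 16.1 and 15.4 FPKM in wild-type control and 26.1, 25.1 and 25.2 FPKM in wild-type LPS+ATP libraries, a rise of 0.68 (SE 0.038, adjusted p = 1.87e-08). It was 13.5, 13.4 and 13.0 FPKM in Nlrp3-/- control and 20.5, 22.0 and 20.5 FPKM in Nlrp3-/- LPS+ATP libraries, a rise of 0.62 (SE 0.038, adjusted p = 5.75e-08). The genotype difference was -0.20 in control (adjusted p = 0.00104) and -0.27 with LPS+ATP (adjusted p = 0.000154), with no overlap of libraries in either state, and it was -0.35 and -0.45 with median-ratio scaling. The 2 responses differed by -0.06 (95% interval -0.18 to 0.06), which did not pass.

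**Figure D2:**
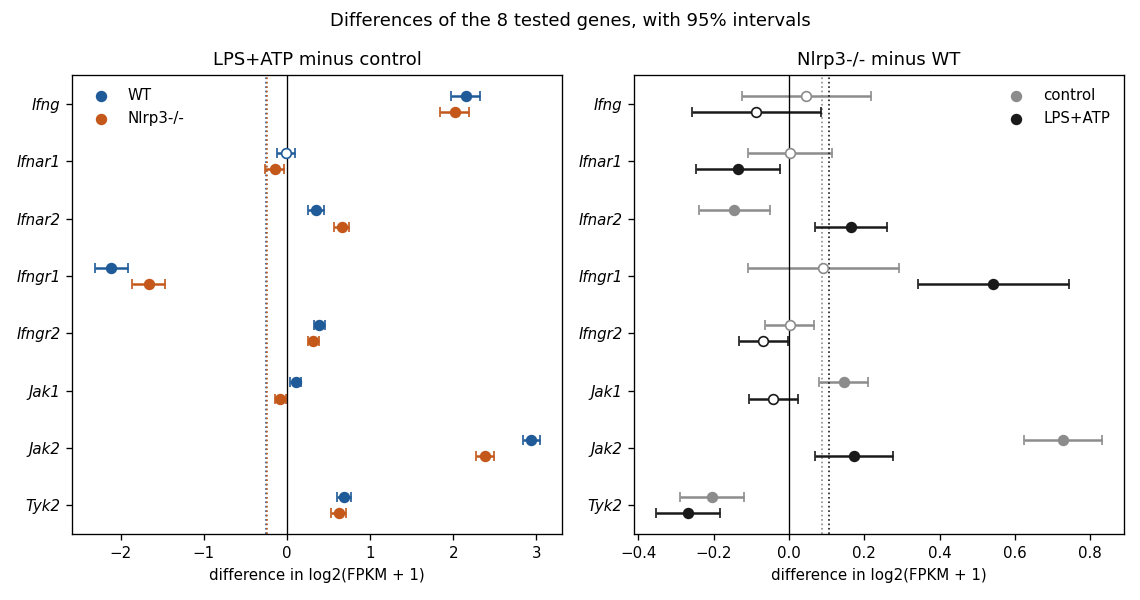
Difference in log2(FPKM + 1) of the 8 tested genes (rows) with its 95% interval, for LPS+ATP minus control in each genotype (left) and Nlrp3-/- minus wild-type in each state (right). Filled points passed the test, and dotted lines mark the median of all tested genes. The filter admitted Ifng through its LPS+ATP libraries, so its filled points on the left were fixed in advance. Jak2 and Ifng lie farthest right with LPS+ATP and Ifngr1 farthest left. The differences of Ifnar1 and Jak1 with LPS+ATP are smaller than the shifts of 0.25 and 0.23 made by median-ratio scaling.

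FPKM is per length, so levels can be ranked between genes within a group. In wild-type control BMDMs the order was Ifngr1, Jak1, Ifngr2, Ifnar2, Ifnar1, Tyk2 and Jak2, from 47.9 to 12.9 FPKM, with no overlap of libraries between neighbours and both interferons at 0. With LPS+ATP the order in wild-type BMDMs was Jak2, Ifngr2, Jak1, Ifnar2, Ifnar1, Tyk2, Ifngr1, Ifng and Ifnb1, again with no overlap between neighbours. Jak2 thus moved from the seventh place to the first, and Ifngr1 from the first to the seventh. In Nlrp3-/- control BMDMs the same 7 genes led, with Jak2 above Tyk2, and the libraries of Ifngr1 and Jak1 and of Ifnar2 and Ifnar1 overlapped. In Nlrp3-/- LPS+ATP BMDMs the order was Jak2, Ifnar2, Ifngr2, Jak1, Ifnar1, Tyk2, Ifngr1, Ifng and Ifnb1, and only Ifnar2 and Ifngr2 overlapped.

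A ratio of 2 genes within a library does not depend on how libraries are scaled, so the partner chains and kinases were also compared as ratios. Stimulation labels were exchanged within each genotype, and genotype labels within each state, in exact two-sided permutation tests whose smallest p is 0.005, with p-values adjusted over the 6 tests. Ifngr1 to Ifngr2 was 1.23 ± 0.080 in wild-type control and 0.200 ± 0.0124 in wild-type LPS+ATP BMDMs, and 1.31 ± 0.090 and 0.317 ± 0.0566 in the same states of Nlrp3-/- BMDMs (SD, n = 3 each). The log2 ratio fell by 2.34 over both genotypes (exact p = 0.005, adjusted p = 0.0075). It was higher by 0.37 in Nlrp3-/- BMDMs over both states (exact p = 0.01, adjusted p = 0.012), with 0.09 in control and 0.65 with LPS+ATP.

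Ifnar1 to Ifnar2 was 0.854 ± 0.030 in wild-type control and 0.662 ± 0.0259 in wild-type LPS+ATP BMDMs, and 0.950 ± 0.0486 and 0.536 ± 0.0493 in Nlrp3-/- BMDMs. Its log2 ratio fell by 0.60 with costimulation (exact p = 0.005, adjusted p = 0.0075). Over both states it did not differ past the threshold between genotypes (-0.08, exact p = 0.385), where the difference was 0.15 in control and -0.31 with LPS+ATP.

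Jak2 to Jak1 was 0.297 ± 0.00827 in wild-type control and 2.26 ± 0.0827 in wild-type LPS+ATP BMDMs, and 0.458 ± 0.0110 and 2.62 ± 0.115 in Nlrp3-/- BMDMs. The log2 ratio rose by 2.72 with costimulation and was higher by 0.42 in Nlrp3-/- BMDMs (exact p = 0.005 and adjusted p = 0.0075 for both). The genotype difference was 0.62 in control and 0.22 with LPS+ATP. The Jak2 level of Nlrp3-/- BMDMs relative to Jak1 was therefore above that of wild-type BMDMs in both states.

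**Figure D3:**
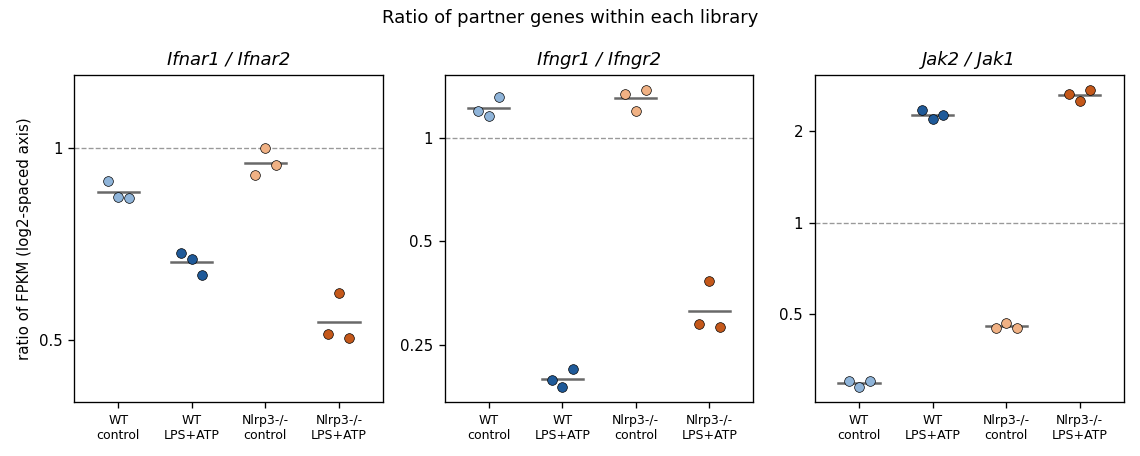
Ratio of the FPKM of partner genes within each library (points; vertical axes spaced by log2, dashed line at a ratio of 1), with the geometric mean of each group (line). Ifngr1 to Ifngr2 lies above 1 in the 6 control libraries and at most at 0.382 with LPS+ATP, Jak2 to Jak1 climbs from below 1 to above 2, and Ifnar1 to Ifnar2 is lower in LPS+ATP than in control libraries of both genotypes.

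For the 3 tested members whose group means spanned at least 1 on the log2 scale, the genes most alike were those with the smallest root mean square difference of log2(FPKM + 1), centred on each gene's mean, over the 12 libraries. Ifng was most like Tnfrsf1b, a receptor of tumour necrosis factor, with a root mean square difference of 0.106. Its level was far above that of Ifng, as Tnfrsf1b went from a mean of 198 to 958 FPKM in wild-type BMDMs. Ifngr1 was most like H2afv, a histone variant gene, at 0.118 and Adssl1, an enzyme gene of adenine nucleotide synthesis, at 0.138. H2afv went from 11.0 to 1.73 FPKM in wild-type and from 12.2 to 3.05 FPKM in Nlrp3-/- BMDMs. Jak2 was most like Spata13, at 0.119, and Arg2, the mitochondrial arginase, at 0.149. Spata13 went from 1.51 to 15.4 FPKM in wild-type and from 3.06 to 18.6 FPKM in Nlrp3-/- BMDMs. The span of Ifng depends on the pseudocount, as given above, and its likeness with it. The likeness is a description over libraries that also share their groups.

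The rest of the pathway was read from lists of known genes, given by counts beside the median of all tested genes. All 18 genes that act between TLR4 and Ifnb1 were tested. In wild-type BMDMs 12 were higher and 2, Jun and Irf3, lower with LPS+ATP, with a list median of 0.66 against -0.26 for all tested genes, and in Nlrp3-/- BMDMs 10 were higher and 4 lower with a median of 0.44. Of all tested genes 23.3% were higher and 53.1% lower in wild-type, and 20.6% and 53.8% in Nlrp3-/- BMDMs. The largest changes in the list were those of Irf7, Irf1, Cd14 and Tank. Irf7, the interferon regulatory factor that amplifies type I interferon, went from 10.3 ± 0.445 to 222 ± 4.57 FPKM in wild-type BMDMs, a rise of 4.30, and from 5.08 ± 0.136 to 181 ± 4.52 FPKM in Nlrp3-/- BMDMs, a rise of 4.90. It was lower in Nlrp3-/- BMDMs in both states, by -0.90 in control (adjusted p = 4.42e-09) and -0.30 with LPS+ATP (adjusted p = 4.30e-05).

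Irf1 rose by 2.74 and 1.89 in wild-type and Nlrp3-/- BMDMs, Cd14, the LPS co-receptor, by 2.25 and 2.48, and Tank, an adaptor of the kinase TBK1, by 1.70 and 1.40. Between genotypes 4 genes of the list were lower and the other 14 did not pass in control, and 2 were higher and 7 lower with LPS+ATP, where 14.5% and 12.6% of all tested genes were lower. With median-ratio scaling 7 were lower in control, 1 was higher and 10 lower with LPS+ATP, and the Nlrp3-/- response had 12 higher and 1 lower. Over all 12622 tested genes that scaling gave 2587 higher and 3230 lower in control, and 2871 and 3431 with LPS+ATP. For the Nlrp3-/- response it gave 4114 higher and 4164 lower. Tlr4 itself, the LPS receptor, was called in neither genotype (-0.23 and -1.07, adjusted p = 0.754 and 0.149). Its libraries were uneven within groups, at 16.7, 3.61 and 3.06 FPKM in wild-type control and 3.66, 2.43 and 11.9 FPKM in wild-type LPS+ATP, and at 3.95, 3.92 and 13.0 FPKM in Nlrp3-/- control and 1.67, 2.46 and 3.01 FPKM in Nlrp3-/- LPS+ATP BMDMs.

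Downstream of the kinases, all 8 signal transducers were called in both genotypes, 4 higher and 4 lower, where 23.3% and 53.1% of all tested genes were in wild-type and 20.6% and 53.8% in Nlrp3-/- BMDMs. The list median was 0.10 in wild-type and 0.08 in Nlrp3-/- BMDMs. Stat4 was below 1 FPKM in every LPS+ATP library, so the filter admitted it through control libraries and favoured its lower calls. With median-ratio scaling the 4 higher were also called in both genotypes, and 4 and 3 lower. Over all 12622 tested genes that scaling gave 4468 higher and 4505 lower in wild-type, and 4114 and 4164 in Nlrp3-/- BMDMs. Stat2, which serves type I interferon signalling, rose in wild-type and Nlrp3-/- BMDMs by 2.25 and 2.58, and Stat3 by 0.77 and 0.51. Stat6, which serves interleukin-4 signalling, fell by 0.75 and 0.54, and the other 3 that were lower in wild-type BMDMs were Stat4, Stat5a and Stat5b. Stat2 was lower in Nlrp3-/- BMDMs by -0.47 in control (adjusted p = 2.48e-06) and by -0.14 with LPS+ATP (adjusted p = 0.0132).

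Of 15 inhibitors of the receptors and kinases 14 were tested, and 5 were higher and 6 lower with LPS+ATP in wild-type BMDMs, 7 higher and 4 lower in Nlrp3-/- BMDMs, against the same shares of all tested genes. The list medians were -0.01 and 0.14, against -0.26 and -0.24. Socs1 and Cish were below 1 FPKM in every control library. The filter thus admitted them through LPS+ATP libraries, which favoured their higher calls. With median-ratio scaling, 9 inhibitors were higher and 3 lower in each genotype. Over all 12622 tested genes that scaling gave 4468 higher and 4505 lower in wild-type, and 4114 and 4164 in Nlrp3-/- BMDMs. The 4 inhibitors with the largest changes in wild-type BMDMs were Usp18, Socs1, Socs3 and Cish. Usp18, which blocks IFNAR2 signalling, rose by 4.46 and 4.85 in wild-type and Nlrp3-/- BMDMs. Socs1, which inhibits JAK1, JAK2 and TYK2, went from 0.584 ± 0.130 to 28.4 ± 0.876 FPKM in wild-type and from 0.674 ± 0.157 to 21.7 ± 0.607 FPKM in Nlrp3-/- BMDMs, rises of 4.21 and 3.77. Socs3, which acts on receptors of the interleukin-6 family, went from 8.87 ± 0.561 to 159 ± 1.22 FPKM in wild-type and from 17.8 ± 1.07 to 135 ± 1.61 FPKM in Nlrp3-/- BMDMs.

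Socs3, like Jak2, was higher in unstimulated Nlrp3-/- than wild-type BMDMs (0.93, adjusted p = 2.64e-08), and its rise was smaller there by -1.17 (adjusted p = 6.15e-07). Cish, an inhibitor of STAT5 signalling, rose by 1.77 and 0.95, from 0.202 ± 0.0483 and 0.350 ± 0.198 FPKM in control. With LPS+ATP, Socs1, Socs3 and Cish were lower in Nlrp3-/- BMDMs, by -0.37, -0.24 and -0.67 (adjusted p = 0.00167, 0.00162 and 0.000130).

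**Figure D4:**
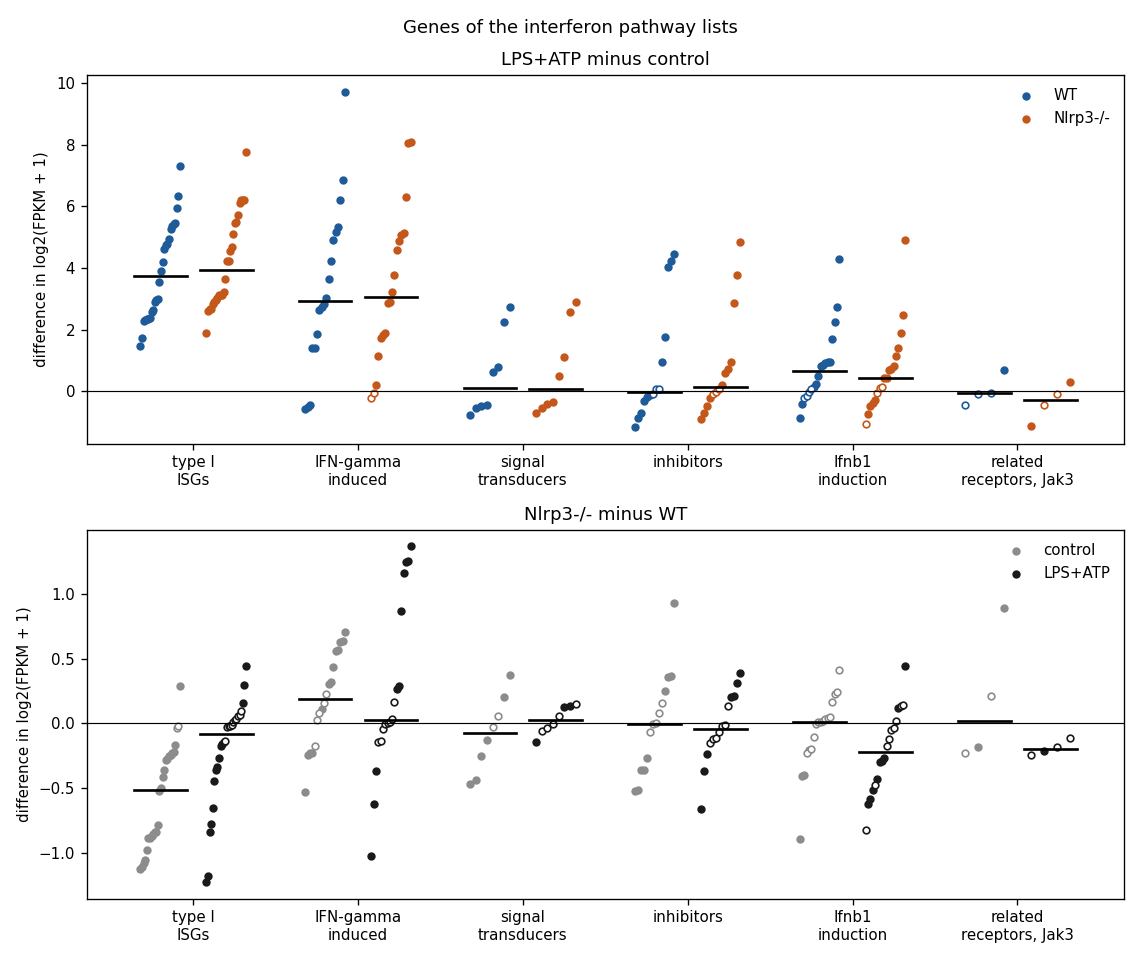
Difference in log2(FPKM + 1) of each tested gene (points, filled where the test was passed) of 6 lists of the interferon pathway, for LPS+ATP minus control in each genotype (top) and Nlrp3-/- minus wild-type in each state (bottom), with list medians (bars). All 26 type I interferon-stimulated genes (ISGs) lie above 0 with LPS+ATP, and in control BMDMs 23 of them were lower in Nlrp3-/- BMDMs. The filter admitted Socs1, Cish, Cxcl9, Nos2, Il20rb and Stat4 through the state where they were higher, so their filled points at the top were favoured in advance.

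All 26 type I interferon-stimulated genes were tested, and all 26 were higher with LPS+ATP in both genotypes, where 23.3% and 20.6% of all tested genes were. Their median was 3.72 in wild-type and 3.93 in Nlrp3-/- BMDMs. Cxcl10, a chemokine, went from 1.90 ± 0.118 to 455 ± 8.34 FPKM in wild-type and from 1.87 ± 0.164 to 618 ± 6.01 FPKM in Nlrp3-/- BMDMs. Rsad2, the antiviral viperin, went from 10.2 ± 0.607 to 903 ± 14.9 FPKM and from 4.30 ± 0.323 to 386 ± 5.95 FPKM. Isg15, a ubiquitin-like protein, rose by 5.95 and 6.12, and Cmpk2, a mitochondrial nucleotide kinase, by 5.46 and 5.11. In the same libraries Ifnb1 itself was below 1 FPKM, and its level at earlier times after LPS was not measured here.

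Without stimulation, 23 of the 26 were lower in Nlrp3-/- BMDMs and 1 was higher, against 14.5% and 33.3% of all tested genes, with a median of -0.51 against 0.09. With LPS+ATP 12 were lower and 3 higher, against 12.6% and 35.9% of all tested genes, with a median of -0.08. The response differed toward a higher value in Nlrp3-/- BMDMs for 19 and toward a lower one for 2, against 14.7% and 13.0%. With median-ratio scaling 24 were lower and the other 2 did not pass in control, 18 lower and 1 higher with LPS+ATP, and the response differed upward for 13 and downward for 3. Over all 12622 tested genes that scaling gave 3230 lower and 2587 higher in control, and 3431 lower and 2871 higher with LPS+ATP. For the response it gave 1651 upward and 1804 downward. Rsad2 was lower by -1.08 in control (adjusted p = 9.65e-09) and -1.23 with LPS+ATP (adjusted p = 4.58e-09), and Cmpk2 by -0.84 and -1.18 (adjusted p = 5.09e-08 and 4.45e-09). Cxcl10 did not differ past the threshold in control (-0.02, adjusted p = 0.770) and was higher by 0.44 with LPS+ATP (adjusted p = 7.61e-06). The fibroblast and neutrophil marker sums given above moved with genotype in the same libraries, and their part was not tested.

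Of 21 genes known for induction by IFN-γ, of which Socs1 and Irf1 also stand in the lists above, 18 were tested. In wild-type BMDMs 15 were higher and 3 lower, and in Nlrp3-/- BMDMs 16 were higher and 2 did not pass, where 23.3% and 20.6% of all tested genes were higher. The list medians were 2.92 and 3.05. Cxcl9, Socs1 and Nos2 did not reach the limit for testing on control libraries alone. The filter admitted them through LPS+ATP libraries, which favoured their higher calls. The 3 genes of the list that were lower in wild-type BMDMs were the class II antigen presentation genes H2-Aa, Cd74 and H2-Eb1. The class II gene H2-Ab1 went the other way, from 8.13 ± 0.814 to 23.2 ± 0.145 FPKM in wild-type and from 12.5 ± 1.64 to 28.8 ± 3.77 FPKM in Nlrp3-/- BMDMs. With median-ratio scaling 15 genes of the list were higher, 2 lower and 1 did not pass in wild-type BMDMs, where 4468 of all 12622 tested genes were higher and 4505 lower. Nos2, the inducible nitric oxide synthase, went from 0.191 ± 0.0800 to 1004 ± 15.0 FPKM in wild-type and from 0.843 ± 0.168 to 494 ± 8.82 FPKM in Nlrp3-/- BMDMs. Cxcl9, a chemokine that attracts T cells, went from 0.620 ± 0.155 to 186 ± 9.22 FPKM and from 0.807 ± 0.160 to 481 ± 7.94 FPKM. The guanylate-binding protein genes Gbp5 and Gbp2 rose by 6.21 and 5.33 in wild-type and by 6.31 and 5.06 in Nlrp3-/- BMDMs.

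The genotypes differed in opposite directions for the leading 2 of these genes with LPS+ATP, Nos2 being lower (-1.02, adjusted p = 1.66e-07) and Cxcl9 higher (1.37, adjusted p = 6.60e-08) in Nlrp3-/- BMDMs. Over the list 9 genes were higher and 4 lower in control, against 33.3% and 14.5% of all tested genes. With LPS+ATP 7 were higher and 3 lower, against 35.9% and 12.6%. With median-ratio scaling these counts became 5 and 10, where 2871 of all 12622 tested genes were higher and 3431 lower.

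Of the related genes Ifnlr1, Il10ra, Il10rb, Il20rb, Il22ra1 and Jak3, the fourth JAK kinase, 4 were tested. Il20rb, a chain for interleukin-20 family cytokines, was the 1 called in wild-type BMDMs, from 0.585 ± 0.0336 to 1.59 ± 0.256 FPKM. Its rise was 0.70 in wild-type and 0.30 in Nlrp3-/- BMDMs, given as values with no p. Il20rb was below 1 FPKM in every control library, so the filter admitted it through LPS+ATP libraries and favoured a higher call. Il10rb, whose gene lies between Ifnar2 and Ifnar1, and Il10ra and Jak3 did not pass in wild-type BMDMs. With median-ratio scaling Jak3 was called higher in wild-type (0.25, adjusted p = 0.000984) and Nlrp3-/- BMDMs (0.18, adjusted p = 0.00919). Il10ra, the ligand-binding chain of the interleukin-10 receptor, fell by 1.11 in Nlrp3-/- BMDMs (adjusted p = 0.00246), where its control libraries were higher than wild-type ones by 0.90 (adjusted p = 0.0149). Ifnlr1, the chain for lambda interferons, was at most 0.346 FPKM in any library.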

How the data were processed

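RNA of BMDMs was sequenced from TruSeq libraries in 4 groups of 3, which were read from the sample labels. The authors deposited 1 table of FPKM per gene and library. The submitters' processing notes name GRCm39 and DESeq2 1.24.0, and the aligner and annotation are not given in the sources used here. All 12 columns of per-library values were used. FPKM holds no counts, so the reads per library are unknown. FPKM summed to 283278 to 299393 in a library, the smallest steps in low FPKM put relative depth at 1.0 to 1.22, and 21122 to 22613 genes were above 0.

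Genes with at least 1 FPKM in at least 3 libraries (12622 of 55335) were fitted in limma 3.58.1 (R 4.3.3) on log2(FPKM + 1), with 4 group means, a trend in the variance and Benjamini-Hochberg adjustment over all of them, and an adjusted p under 0.05 was called. The scale understates changes of low genes. Ratios were tested by exact permutation in Python 3.11.15 (numpy 2.4.6, pandas 2.3.3, matplotlib 3.10.9). The genes, lists and tests were chosen with earlier results of these data known. All 9 genes were named, with up to 4 genes a list that had the largest called wild-type response, and the 2 genes most like each of the 3 widest-ranging members. Some genes that this rule picks are not reported here. Genes outside that rule (Xist, Ddx3y, Lum, Jun, Irf3, Tlr4, Stat4, Stat5a, Stat5b, H2-Aa, Cd74, H2-Eb1, H2-Ab1, Il10ra, Il10rb, Jak3, Ifnlr1 and the other interferons above 0) were named after their values were seen. Alternatives were TPM, a pseudocount of 0.1, omission of the filter, a stricter filter of 5 FPKM, median-ratio scaling, a replicate block, no variance trend, the compared groups alone, a fold limit of 1 on the log2 scale, FPKM + 1 for ratios, and leaving out each library. Other experiments of the study were not analysed here.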

Additional observations from a re-analysis of the deposited data

Results flagged for a closer look

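The response to LPS+ATP differed between the genotypes for 4 genes, by the interaction term of the limma fit over all tested genes, and these are given as values. Ifnar2 rose more in Nlrp3-/- BMDMs by 0.31 (adjusted p = 0.00305), and Ifngr1 fell less by 0.45 (adjusted p = 0.0227), a call that 3 single libraries could each remove. Jak1 differed by -0.19 (adjusted p = 0.00724), and Jak2 rose less by -0.55 (adjusted p = 0.000106). These differences were taken between BMDMs whose donor sex and whose fibroblast and neutrophil marker levels also differed with genotype, and their part was not tested. No member was searched for outlying values, since groups had 3 libraries, and over all tested genes each library lay 0.186 to 0.202 (root mean square, log2) from the mean of the other 2 of its group.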

How the results depend on the processing

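Of 787 recomputed member differences, 733 kept direction and side of the threshold, 34 lost and 4 gained the call, 8 changed sign where neither fit called them, and 8 reversed with a call in either fit, all with median-ratio scaling. The last were Ifnar1 in the LPS+ATP response of wild-type (0.31) and Nlrp3-/- (0.13) BMDMs and in the control genotypes (-0.15), Jak1 in the Nlrp3-/- response (0.20) and the control genotypes (-0.0061), Ifngr2 in the control genotypes (-0.15), and Ifnar2 (-0.0225) and Jak2 (-0.0175) between genotypes with LPS+ATP. The deposited values do not show which scaling is right. A fold limit of 1 left 3 called members in each LPS+ATP response (Ifngr1, Jak2 and Ifng) and 0 in both genotype comparisons and the interaction. Without the limit the genotype comparisons in control and with LPS+ATP and the interaction had 4, 5 and 4 called. For Ifng the limit decides nothing, since the filter fixed its call and the pseudocount sets its size.

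The other 99 of 104 counts stayed within 1.5 times. Counts for the LPS+ATP responses, here and below, include Ifng, whose call was fixed by the filter. Leaving out 1 library gave 7 called members in the wild-type response, 6 to 8 in the Nlrp3-/- response, 3 to 4 and 4 to 5 between genotypes in control and with LPS+ATP, and 3 to 5 for the interaction, where Ifnar1 was added without Nlrp3-/- LPS+ATP replicate 2 (-0.20, adjusted p = 0.0112). The call of Ifnar1 between genotypes with LPS+ATP was lost in 11 of these 12 fits, with adjusted p-values of 0.0564 to 0.168. Pseudocount and TPM set the size of the Ifng response, 2.15 becoming 3.69 with TPM in wild-type BMDMs.

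Same-numbered libraries of different groups did not deviate together (correlations -0.057 to 0.053, 0 of 12 over 0.1), so the numbers do not pair them. A replicate block gave 7, 8, 4, 4 and 4 called members in the 5 comparisons, losing Ifnar1 between genotypes with LPS+ATP (adjusted p = 0.0592) and no other call. All 84 alternatives of the ratios kept direction and side of the threshold, with exact permutation p-values of 0.0312 under the block, the smallest it allows, for the 5 called. Depth in reads is unknown, so the number of reads behind Ifnb1 cannot be given. Its value in Nlrp3-/- control replicate 3, scaled for relative depth, was taken as a step. In such steps Ifnb1 was 3.97, 2.72 and 6.64 in wild-type LPS+ATP and 6.82, 6.51 and 6.53 in Nlrp3-/- LPS+ATP libraries. How many reads make a step is unknown.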
